A study of Mus musculus with 4 samples.

Results

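The output and feedback genes of the ERK pathway were followed in Py2T, a breast cancer line from a mouse mammary tumour whose cells lose epithelial traits under TGFβ. They are 10 of the 19938 genes measured, chosen by name as a family and not by a cut on their values. Earlier results of these data were known when the genes were chosen. They comprise the phosphatases Dusp4, Dusp5 and Dusp6, the Sprouty genes Spry1, Spry2 and Spry4, and the Spred genes Spred1 and Spred2. The ETS transcription factors Etv4 and Etv5 complete the family. Each gene was read from the brightest probe set that the array's gene table assigns to its symbol alone, and all 10 were found. Total RNA was measured on 4 Affymetrix arrays, of which 2 hold untreated cells and 2 hold cells after 5 days of TGFβ at 2 ng/ml. Both groups were the same line, kept in DMEM with glutamine, antibiotics and 10% FCS. The replicates are called biological by the submitters, whose labels do not say how the cultures were kept apart, so the p-values reflect only how far these samples spread, which may be technical. A serum-grown line holds growth factors in its medium in both groups, and no array used here came from cells with ERK blocked or stimulated.

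ERK is the last kinase of a chain in which growth factor receptors switch on Ras, Ras activates Raf, Raf activates MEK and MEK activates ERK. Active ERK raises the transcription of genes that damp the same chain, so their RNA is often read as a gauge of ERK output. Dusp phosphatases remove the activating phosphates from ERK, Sprouty proteins restrain signalling between receptor and Raf, and Spred proteins bring the Ras inhibitor neurofibromin to the membrane. Etv4 and Etv5 are ETS factors of the PEA3 group that carry growth factor signals to target genes. In mammary epithelium and breast tumours this chain acts beside TGFβ signalling.

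TGFβ-treated cells were compared with untreated cells to see how these genes stand after EMT induction. Spry1 fell 3.88-fold, while Spry2 and Spry4 did not pass the test. Dusp4 rose 2.79-fold and Spred2 rose 2.05-fold. Dusp6 fell 1.24-fold, a call that depended on every array. Etv4 and Etv5, along with Dusp5 and Spred1, did not pass.

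The stretch of 250 bases before the annotated start was read from RefSeq sequences of the mouse genome (GRCm38.p6), whose promoter table matched 7 of the 10 genes (not Dusp4, Spry4 or Etv4). The sequences shown are those of the called genes Spry1, Spred2 and Dusp6 that the table holds, with Spry2 as the uncalled relative of Spry1. Spry1 lies at chr3:37639697-37639946 (plus strand), Spry2 at chr14:105896820-105897069 (minus strand), Spred2 at chr11:19924192-19924441 (plus strand) and Dusp6 at chr10:99262981-99263230 (plus strand). Capitals mark GGAAG on either strand, the form of the ETS core that was searched. Other forms, such as the shorter GGAA present in the Spry1 and Spry2 sequences, were not marked or counted.
Spry1: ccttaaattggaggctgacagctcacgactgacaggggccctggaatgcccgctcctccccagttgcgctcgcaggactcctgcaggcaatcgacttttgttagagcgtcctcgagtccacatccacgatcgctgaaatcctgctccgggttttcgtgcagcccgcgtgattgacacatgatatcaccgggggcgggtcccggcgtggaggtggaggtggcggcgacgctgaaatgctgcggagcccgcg
Spry2: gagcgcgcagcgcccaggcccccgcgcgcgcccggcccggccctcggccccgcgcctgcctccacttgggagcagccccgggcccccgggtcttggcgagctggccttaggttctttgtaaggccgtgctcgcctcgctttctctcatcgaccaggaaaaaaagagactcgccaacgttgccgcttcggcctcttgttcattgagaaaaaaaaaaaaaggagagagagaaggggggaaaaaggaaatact
Spred2: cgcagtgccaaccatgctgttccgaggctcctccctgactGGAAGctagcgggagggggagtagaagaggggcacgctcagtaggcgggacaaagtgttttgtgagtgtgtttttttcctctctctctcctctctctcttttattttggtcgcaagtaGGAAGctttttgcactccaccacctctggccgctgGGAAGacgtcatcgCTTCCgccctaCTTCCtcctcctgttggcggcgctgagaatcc
Dusp6: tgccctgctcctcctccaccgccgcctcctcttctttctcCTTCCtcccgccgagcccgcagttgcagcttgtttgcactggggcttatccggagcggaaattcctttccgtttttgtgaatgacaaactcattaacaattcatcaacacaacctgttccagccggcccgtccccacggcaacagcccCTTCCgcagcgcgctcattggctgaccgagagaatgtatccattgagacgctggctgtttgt

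The window of Spred2 held 5 copies of GGAAG, that of Dusp6 held 2, and those of Spry1 and Spry2 held 0. Among the uncalled genes not shown, Dusp5 and Spred1 held 1 each, and Etv5 held 2 or 0, depending on the start. No copies overlapped in these windows. At least 1 copy was found in 64.1% of the 32851 promoter windows of this length in the table, in which a gene with several starts counts more than once. A window with 5 or more copies made up 0.965% of them. This mark was set after the Spred2 count, the highest among the 7 genes, was seen, so the share is not a test. The Smad element CAGAC (42.2% of all windows), the E-box CAGGTG bound by EMT repressors (17.2%) and the AP-1 element TGANTCA (6.75%), each sought on both strands, were not found in the windows of any of the 7 genes. A match describes the letters and is not a binding site, and a missing match says only that these letters are not in this window.

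Values are log2 expression values from RMA, so a difference of 1 is a 2-fold change. Array medians over all probe sets lay between 6.742 and 6.756. All 5 epithelial markers were above 7, a level taken here as a rough mark of dim signal since no detection calls came with the values. Of these, Epcam fell by 1.10 and Cdh1 fell by 1.25 under TGFβ, while Krt8 differed by 0.06. Both group means were under 7 for 3 of 4 immune, 4 of 4 endothelial, 3 of 5 fibroblast and 3 of 3 adipocyte markers. Ptprc, the defining immune marker, lay between 5.49 and 5.57. The exceptions were Cd68 (8.87 to 9.63 untreated, 7.60 to 8.33 treated, adjusted p = 0.052), Col1a1, which rose by 0.46, and Pdgfra, which differed by 0.49 (adjusted p = 0.096). The treatment itself was visible in the early TGFβ target Smad7, which rose by 0.99 on the log2 scale, and all 4 measured TGFβ response genes rose.

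**Figure D1:**
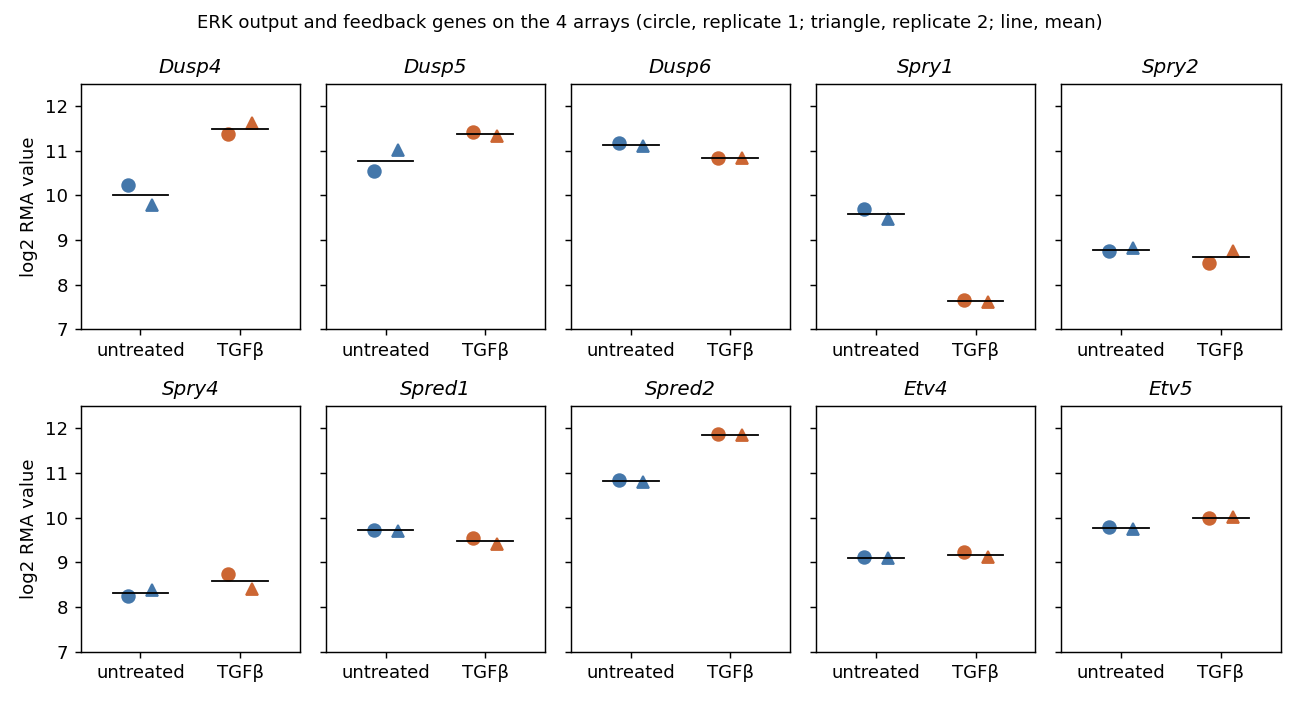
Log2 RMA value (vertical axis) of each of the 10 ERK output and feedback genes on the untreated arrays (blue) and the TGFβ arrays (orange). Circles are replicate 1, triangles are replicate 2 and lines are group means of 2 arrays; Spry1 dropped to 7.61 and 7.65, while Dusp4 and Spred2 moved up. Levels of different genes come from different probes and are not comparable.

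With limma and an adjusted p under 0.05, 4 of the 10 genes were called, or 40%, against 13.6% of all genes. They were 2 rises, against 6.49% of all genes called higher, and 2 falls, against 7.15% called lower. The median difference was 0.15 on the log2 scale, beside 0.0097 over all genes. A rise of at least 2-fold was called for 2 of the genes (1.62% of all genes) and such a fall for 1 (1.78%). The groups did not overlap for 8 of the 10, beside 52.6% of all genes. Of these, 5 were higher under TGFβ (27.6% of all genes) and 3 lower (25%). All 10 genes had both group means above 7, while 9022 of the 19938 genes had both means under 7. The shares of all genes therefore include many dim genes, and none was computed at matched level. In a fit without the dimmer 50% of genes, 2454 of the remaining genes were called, among them 5 of the 10. That is a larger share of the genes tested than 13.6%, so 13.6% is a low comparison for these bright genes. In these bulk samples, less RNA per cell and fewer cells that hold it cannot be told apart.

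Among the phosphatases, Dusp4 and Dusp5 are nuclear enzymes induced by growth factors and Dusp6 is the cytoplasmic enzyme most selective for ERK. Dusp4 read 10.23 and 9.78 in untreated cells and 11.36 and 11.61 under TGFβ. Both treated arrays lay more than 1 log2 unit above both untreated arrays, and the untreated arrays differed by 0.44 between themselves. The rise was 1.48 ± 0.17 (moderated SE from limma, n = 2 per group) on the log2 scale. Its 95% interval was 1.07 to 1.89 and its adjusted p was 0.0043. Its size exceeded that of 98.3% of all genes, in either direction.

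Dusp5 read 10.54 and 11.01 in untreated cells and 11.43 and 11.32 under TGFβ. The groups did not overlap, yet the higher untreated array stood closer to the treated arrays than to its own replicate. The difference of 0.60 ± 0.16 (95% interval 0.21 to 0.99) had an adjusted p of 0.064 and was not called. Its size depended on the untreated arrays: it was 0.36 without untreated replicate 1 (adjusted p = 0.14) and 0.84, and then called, without untreated replicate 2 (adjusted p = 0.012). Without TGFβ replicate 1 or 2 it was 0.55 or 0.65, and not called.

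Dusp6 read 11.18 and 11.10 in untreated cells and 10.83 and 10.83 under TGFβ. The arrays of each group were close together and the groups were separate, with a small step between them. The difference was -0.31 ± 0.07 (95% interval -0.49 to -0.12, adjusted p = 0.0495), just inside the threshold. Leaving out any array ended the call, whether untreated replicate 1 (log2 -0.27, adjusted p = 0.25) or 2 (log2 -0.35, adjusted p = 0.13), or TGFβ replicate 1 (log2 -0.31, adjusted p = 0.14) or 2 (log2 -0.31, adjusted p = 0.13). Median centring of the arrays also ended it (-0.29, adjusted p = 0.069), as did leaving out the dimmest 25% of genes (adjusted p = 0.054) and the replicate number as a block (adjusted p = 0.11). The sign stayed negative in all 13 alternatives.

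Sprouty proteins are inhibitors that growth factor signalling induces and that block the receptor's signal on its way to Ras and Raf. Spry1 read 9.70 and 9.46 in untreated cells and 7.65 and 7.61 under TGFβ. The groups stood far apart, with treated arrays that differed by 0.04 between themselves. The fall was -1.96 ± 0.10 (moderated SE from limma, n = 2 per group) on the log2 scale. Its 95% interval was -2.20 to -1.71 and its adjusted p was 4.9e-04. Its size exceeded that of 99.2% of all genes, in either direction. The treated level came close to the mark of 7, where background can compress a difference.

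Spry2 read 8.75 and 8.83 in untreated cells and 8.48 and 8.75 under TGFβ. The higher treated array matched the lower untreated array, and the difference of Spry2 was -0.17 ± 0.11 (95% interval -0.44 to 0.10, adjusted p = 0.43). Spry4 read 8.25 and 8.38 in untreated cells and 8.73 and 8.41 under TGFβ. The treated arrays of Spry4 differed by 0.32 and the lower of them lay next to the untreated arrays, for a difference of 0.25 ± 0.12 (95% interval -0.05 to 0.56, adjusted p = 0.28). Neither gene was called in any of 13 alternatives.

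Spred proteins carry a Sprouty-like domain and inhibit the step from Ras to Raf. Spred2 read 10.85 and 10.79 in untreated cells and 11.86 and 11.84 under TGFβ. The arrays within each group nearly coincided and the groups were about 1 log2 unit apart. The rise was 1.04 ± 0.07 (moderated SE from limma, n = 2 per group). Its 95% interval was 0.86 to 1.22 and its adjusted p was 0.0011. A second probe set of Spred2, dimmer and not used for the test, read 9.85 and 9.85 in untreated cells and 11.10 and 11.14 under TGFβ, a difference of 1.27. Tested among all 35556 probe sets, the first had an adjusted p of 0.0096 and the second of 0.0069.

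Spred1 read 9.73 and 9.71 in untreated cells and 9.55 and 9.40 under TGFβ. Both treated arrays lay below both untreated arrays, in the direction opposite to Spred2. The difference of -0.25 ± 0.08 (95% interval -0.45 to -0.04) had an adjusted p of 0.12 and was not called, nor was it in any of 13 alternatives.

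The PEA3 factors Etv4 and Etv5 are among the most often used readouts of FGF and ERK signalling. Etv4 read 9.12 and 9.09 in untreated cells and 9.23 and 9.11 under TGFβ. The groups overlapped, and the difference of 0.07 ± 0.08 had a 95% interval of -0.13 to 0.26 (adjusted p = 0.71). Etv5 read 9.78 and 9.75 in untreated cells and 9.99 and 10.01 under TGFβ. The Etv5 groups were separate, but the difference of 0.24 ± 0.07 (95% interval 0.06 to 0.42) had an adjusted p of 0.092. A second, dimmer probe set of Etv5 differed by 0.33, from 9.40 and 9.29 to 9.68 and 9.66. Among all probe sets the pair had adjusted p-values of 0.16 and 0.11. For both factors the upper bound of the interval lay below a 2-fold rise.

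**Figure D2:**
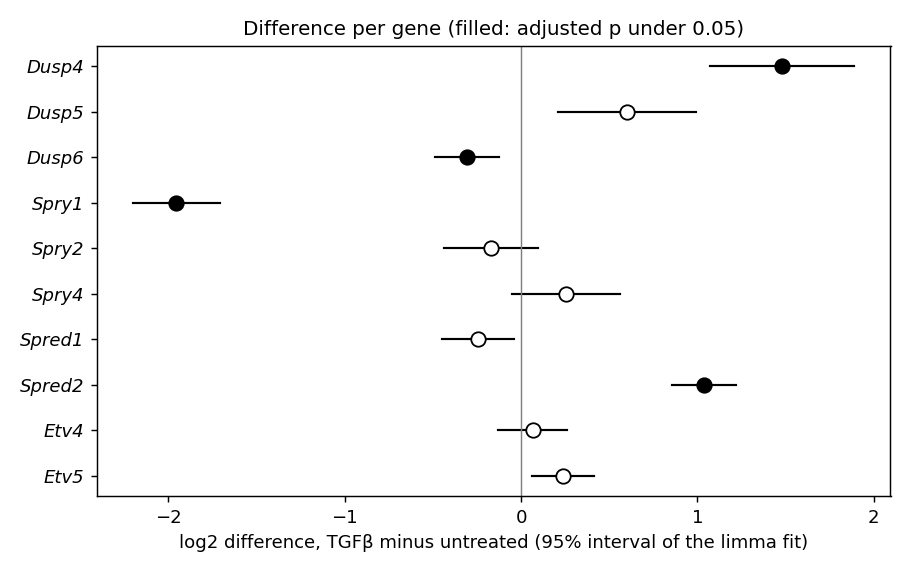
Log2 difference between TGFβ and untreated arrays (horizontal axis) for each of the 10 genes, with bars for the 95% interval of the limma fit and filled points for an adjusted p under 0.05. Spry1 at -1.96, Spred2 at 1.04 and Dusp4 at 1.48 lie well away from 0, while Spry2, Spry4 and Etv4 have intervals that include 0.

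The changes of close relatives were set side by side. Between the change of Spry1 and that of Spry2 lay -1.79 on the log2 scale, and between Spry1 and Spry4 -2.21. Spred1 and Spred2 were -1.28 apart, and Dusp4 exceeded Dusp6 by 1.79 and Dusp5 by 0.88. Etv4 and Etv5 were the closest pair, -0.17 apart. These 8 pairs, with Dusp5 against Dusp6 (0.91) and Spry2 against Spry4 (-0.43), were not tested. An exact permutation test of 2 arrays against 2 cannot give a two-sided p below 0.333.

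Leaving out each array in turn kept the calls of Dusp4, Spry1 and Spred2. Dusp4 ranged from 1.26 without untreated replicate 2 to 1.70 without untreated replicate 1, with adjusted p-values up to 0.014. Spry1 ranged from -2.07 to -1.84 and Spred2 from 1.01 to 1.07. Over all 13 alternatives none of the 10 genes changed sign, although Etv4 came down to 0.0084 and Spry2 to -0.04 without TGFβ replicate 1.

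**Figure D3:**
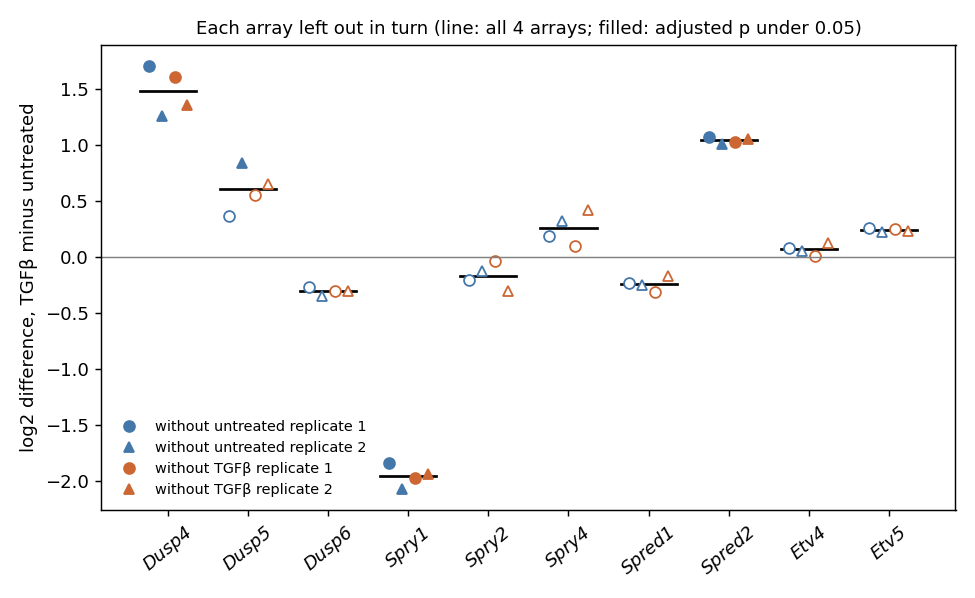
Log2 difference of each gene (vertical axis) with all 4 arrays (line) and without each array in turn (blue, an untreated array left out; orange, a TGFβ array left out; circle, replicate 1; triangle, replicate 2). Filled points have an adjusted p under 0.05: Dusp4, Spry1 and Spred2 keep their call throughout, Dusp5 gains it once, without untreated replicate 2, and Dusp6 is open at every point.

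The other MAP kinase phosphatases also went both ways. Of 7 measured, 3 rose, 1 fell and 3 did not pass, so that 57.1% were called beside 13.6% of all genes, with a median of 0.31. Dusp10, which acts mainly on the stress kinases JNK and p38, rose by 0.93 (adjusted p = 0.0016). Dusp9, an ERK phosphatase of the cytoplasm like Dusp6, rose by 0.41 and Dusp16, a JNK phosphatase, by 0.39. Both calls were lost without any of the 4 arrays, at 0.35 to 0.47 for Dusp9 (adjusted p 0.056 to 0.13) and 0.32 to 0.46 for Dusp16 (adjusted p 0.067 to 0.15). Dusp1, the nuclear immediate-early phosphatase, fell by 0.83 (adjusted p = 0.044), opposite to its nuclear relative Dusp4. It was not called without untreated replicate 2 (log2 -0.58, adjusted p = 0.11) or TGFβ replicate 1 (log2 -0.66, adjusted p = 0.15), and after cyclic loess (adjusted p = 0.058) or repeated quantile normalization (adjusted p = 0.059).

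Among 16 measured further negative regulators of the chain 3 rose, 0 fell and 13 did not pass, with a median of 0.07. The share called, 18.8%, was near the 13.6% of all genes. The ubiquitin ligases Cbl and Cblb, which mark active receptors for destruction, rose by 0.82 (adjusted p = 0.012) and 0.51 (adjusted p = 0.012). The Cblb call was lost without untreated replicate 2 (log2 0.45, adjusted p = 0.064). Spred3, the third Spred gene, rose by 0.42 (adjusted p = 0.024), the direction of Spred2, but was not called without untreated replicate 1 (log2 0.46, adjusted p = 0.082), untreated replicate 2 (log2 0.39, adjusted p = 0.11) or TGFβ replicate 2 (log2 0.37, adjusted p = 0.076). Il17rd, the FGF signalling inhibitor also called Sef, had a difference of 0.48 (adjusted p = 0.12), called without untreated replicate 1 (log2 0.71, adjusted p = 0.025) but down to 0.24 without untreated replicate 2 (adjusted p = 0.34) and 0.27 as the mean of its probe sets. Spry3 was dim in both groups, at 5.01 to 5.23, and differed by 0.07.

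The chain itself had 18 measured genes of 26 listed, of which 5 rose, 0 fell and 13 did not pass (median 0.11). The share called was 27.8%, beside 13.6% of all genes, of which 6.49% were called higher and 7.15% lower. Map2k1, which encodes the kinase MEK1 that activates ERK, rose by 0.86 (adjusted p = 0.0026). The docking protein Gab2 rose by 1.63 (adjusted p = 0.0026) and the scaffold Ksr1, which holds Raf, MEK and ERK together, by 1.21 (adjusted p = 0.0012). These 3 calls held without each array in turn. Of 17 receptor tyrosine kinases at the head of the chain 4 rose, 2 fell and 11 did not pass (median 0.0075). Called were 35.3% of them, beside 13.6% of all genes. Ret rose by 2.60, Egfr by 1.05 and Pdgfrb by 1.01, while Erbb3 fell by 2.02 and the HGF receptor Met fell by 0.57, which was not called without untreated replicate 2 (log2 -0.46, adjusted p = 0.13) or TGFβ replicate 2 (log2 -0.44, adjusted p = 0.096). Ret and Pdgfrb had untreated means under 7, so background may limit the size of their rises.

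Genes that, like the Dusp, Spry and Etv genes, are read as ERK output also went both ways. Of 17 measured, 3 rose, 2 fell and 12 did not pass (29.4% called, beside 13.6% of all genes), with a median of 0.0095. The urokinase receptor gene Plaur rose by 0.82 (adjusted p = 0.013), the EGF receptor ligand Hbegf by 0.77 (adjusted p = 0.026) and the stress and growth factor response gene Ier3 by 0.55 (adjusted p = 0.016). The Plaur call was lost without TGFβ replicate 1 (log2 0.79, adjusted p = 0.052), the Ier3 call without untreated replicate 1 (log2 0.50, adjusted p = 0.080) and the Hbegf call without untreated replicate 1 (log2 0.59, adjusted p = 0.079) or TGFβ replicate 1 (log2 0.63, adjusted p = 0.089). The ephrin receptor Epha4 fell by 1.65 (adjusted p = 0.012). Cyclin D1, Ccnd1, fell by 0.37 (adjusted p = 0.025) at one of the brightest probe sets of the array, and lost its call without any of the 4 arrays (-0.37 to -0.36, adjusted p 0.072 to 0.13). Epha2 (-0.34, adjusted p = 0.058), Phlda1 (-0.19), Fosl1 (-0.20) and Egr1 (-0.43, adjusted p = 0.45) did not pass. Epha2 passed after cyclic loess (adjusted p = 0.039), repeated quantile normalization (adjusted p = 0.038) and a variance model with trend and robust moderation (adjusted p = 0.035). With each array left out in turn Egr1 ranged from -0.81 to -0.05 and Fosl1 from -0.37 to -0.03.

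The other ETS factors, relatives of Etv4 and Etv5, counted 0 rises and 2 falls with 10 genes that did not pass among 12 measured (median -0.16). The share called, 16.7%, was near the 13.6% of all genes. Elf3, an epithelial ETS factor, fell by 1.96 (adjusted p = 0.0028). Its treated mean was 6.55, under 7, so background may limit the size of this fall. Elk3, a partner of serum response factor, fell by 0.52 (adjusted p = 0.010), which was not called without untreated replicate 1 (log2 -0.48, adjusted p = 0.062). Etv1, the remaining PEA3 factor, read 9.39 and 8.71 in untreated cells and 8.08 and 8.93 under TGFβ. Its replicates differed by more than its group means (-0.55, adjusted p = 0.39), and leaving out each array in turn gave -0.97 to -0.13.

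With the replicate number as a block, further calls of related genes were lost: Dusp9 (adjusted p = 0.066), Dusp16 (adjusted p = 0.070), Spred3 (adjusted p = 0.072), Ccnd1 (adjusted p = 0.073), Hbegf (adjusted p = 0.084), Met (adjusted p = 0.10) and Epha4 (adjusted p = 0.051).

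**Figure D4:**
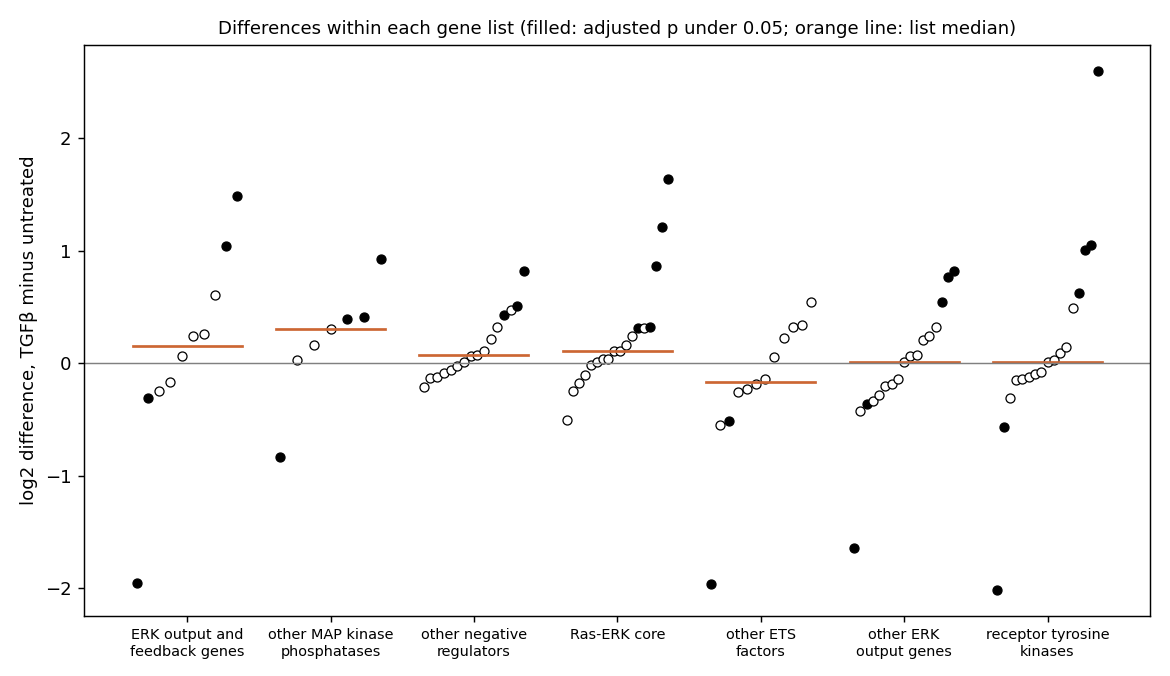
Log2 difference between TGFβ and untreated arrays (vertical axis) for the measured genes of each list, sorted within the list, with filled points for an adjusted p under 0.05 and an orange line at the list median. The ERK output and feedback genes run from -1.96 to 1.48 with a median of 0.15, with calls in both directions. The other negative regulators and the other ETS factors hold few calls, 3 and 2.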

How the data were processed

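Amplified and biotin-labelled cDNA was read on Affymetrix arrays, per the labels' protocols. The deposited table holds log2 values for each probe set, which the authors obtained with RMA in the R package oligo, per the submitters' processing notes. RMA corrects background, equalises array distributions and summarises probes. Its version, annotation and build: not given in the sources used here. Of 35556 probe sets 21789 carry 1 symbol, which gave 19938 genes through the brightest probe set of each. Of 97 related genes listed 87 were measured. Some listed genes are not reported here.

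The comparison used limma 3.58.1 and R 4.3.3 (lmFit and eBayes, two-sided, 2 residual and 3.77 prior degrees of freedom) with Benjamini-Hochberg adjustment over all 19938 genes, without filter or further normalization. The procedure was tested on simulated data. The number of arrays limits the precision. All standard errors (after ±) and intervals are moderated, so they combine the spread of a gene's own arrays with that over all genes. Members and lists were chosen with earlier results of these data known. Named genes were the 10 members, up to 3 called rises and 3 called falls per related list, 12 genes set by name and cell type markers. Grb2, Frs3 and Fgfr1, called higher but outside this rule, are counted only. Motifs were chosen after the values were seen.

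Alternatives were other normalizations, filters on dim genes, probe-set means, another variance model, the replicate block, a 2-fold rule and leaving out each array. The replicate numbers were not taken as pairs, since the labels name none and deviations of same-numbered arrays correlated at -0.21 across genes.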

Additional observations from a re-analysis of the deposited data

How the results depend on the processing

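Among the 10 genes, Dusp4, Spry1 and Spred2 kept their call in all 13 alternatives that keep the call rule, and none changed sign. The number of falls dropped from 2 to 1 (Dusp6 lost) with median centring, without the dimmest 25% of genes, with the replicate block, with the 2-fold rule, and without each array in turn (range 1 to 1). Dusp5 passed without the dimmest 25% of genes (adjusted p = 0.049), without the dimmer 50% (adjusted p = 0.043) and under a variance model with trend and robust moderation (adjusted p = 0.039). The calls over all genes numbered 2720, against 1624 with the replicate number as a block, 677 with the 2-fold rule and 1535 to 2260 without each array in turn. With the block 3 of the 10 genes and 17 of the 87 measured related genes were called, the latter against 25 without it. Calls over all 19938 genes also fell with the block, from 2720 to 1624. A crossed pairing, added after seeing the data because same-numbered arrays deviated in opposite ways, called 3640 of all 19938 genes and 5 of the 10. The 2-fold rule left 8 of the 87 related genes, beside 677 of all 19938 genes. A lone array left in a group was assumed to vary like the other group. Background may limit the size of the Spry1 fall, whose treated level lies near 7, but this was not tested.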

Other observations

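The replicates of some feedback genes stood further apart than those of the typical gene, for which the median absolute difference was 0.088 between the untreated and 0.10 between the TGFβ arrays. Among untreated arrays, replicate 2 minus replicate 1 was 0.47 for Dusp5, -0.44 for Dusp4, -0.24 for Spry1, 0.13 for Spry4 and 0.08 for Spry2 on the log2 scale, and between -0.08 and -0.02 for Dusp6, Spred1, Spred2, Etv4 and Etv5. Among TGFβ arrays it was -0.32 for Spry4, 0.26 for Spry2 and 0.25 for Dusp4, and between -0.14 and 0.02 for Spred1, Etv4, Dusp5, Spry1, Spred2, Dusp6 and Etv5.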
